A study of Mus musculus with 11 samples.

Results

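The 9 genes described here encode fibroblast growth factors (Fgf) of the early limb bud and their receptors, and they were chosen by name from the 47517 gene rows of the count table. They are the ligands Fgf8, Fgf17, Fgf9 and Fgf4 of the apical ectodermal ridge, the mesenchymal ligand Fgf10, and the receptor tyrosine kinases Fgfr1, Fgfr2, Fgfr3 and Fgfr4. RNA-seq of ribosome-depleted total RNA was done on mouse forelimb buds at E10.5, in 11 libraries from embryos of 4 litters, called A to D here. The 5 controls were Gmnn +/f; Prx-Cre and the 6 mutants Gmnn f/f; Prx-Cre, all with the strain background C57BL/6. Both groups therefore carried the Prx-Cre transgene and at least 1 floxed allele of Gmnn, the gene of the replication licensing inhibitor Geminin, and no group without Cre was analysed here. Prx-Cre expresses Cre recombinase in limb bud mesenchyme, so that the ridge, an ectodermal structure, and the muscle precursors that enter the bud from the somites are outside the tissue it is used to recombine. Controls 1 and 2 shared litter A with mutants 1 and 2, and control 5 shared litter D with mutants 3 and 4. The remaining litters gave a single pair each: control 3 with mutant 6 came from B, and control 4 with mutant 5 from C. The titles number separate embryos within a litter, and each library is treated as 1 replicate.

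Limb outgrowth depends on Fgf signals that pass between the 2 tissue layers of the bud. Fgf10 from the mesenchyme acts on the overlying ectoderm, mainly through the form of Fgfr2 made by epithelial cells, and induces and maintains the ridge. The ridge in turn secretes Fgf8 and, in narrower domains or at later times, Fgf4, Fgf9 and Fgf17, which act on the mesenchyme largely through Fgfr1 and the mesenchymal form of Fgfr2. In whole buds, the ridge ligands come from a thin strip of cells among many mesenchymal cells, and fewer cells of a type and less RNA per cell cannot be told apart.

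Gmnn, the targeted gene, was at 150, 199, 139, 171 and 239 CPM (read counts scaled to a common library size) in controls 1 to 5 and ran from 99.5 through a median of 111 to 138 CPM in mutants. The groups did not overlap, and the log2 fold change of mutant over control was -0.67 (SE 0.10, adjusted p = 0.0291 by edgeR's quasi-likelihood test, with litter in the model as a block and Benjamini-Hochberg adjustment). Library totals were 14721181 to 19733288 counts. The forelimb gene Tbx5 was at 64.8 to 123 CPM, against 0.561 to 6.11 CPM for Tbx4 of the hindlimb. In control 2 the hindlimb genes Pitx1 and Isl1 were at 4.07 and 11.8 CPM, above the highest values in the other 10 libraries, which were 0.595 CPM for Pitx1 and 3.64 CPM for Isl1. Tbx4 was not raised there, at 2.73 CPM in control 2, below 6.11 CPM in control 3 and 4.01 CPM in control 4. Markers of the source tissues were present in each library: the summed level of 7 apical ridge genes was 106 to 246 CPM in controls and 135 to 174 CPM in mutants, with Sp6 near 0 throughout, and that of 7 limb mesenchyme genes was 507 to 644 CPM and 530 to 609 CPM. Gm11532 overlaps 86.7% of the Sp6 exon length in GENCODE M21, so that the Sp6 count may not show its level. Of the other lists, differentiating muscle held genes that passed: its 6 genes summed to 52.3, 58.5, 17.3, 7.15 and 79.2 CPM in controls 1 to 5 and to between 7.19 and 16.3 CPM in mutants, and 3 of the 6 (Acta1, Actc1 and Myl1) passed the test as lower in mutants. Control 4 was the lowest of the 11 libraries, below mutant 5 of its litter at 9.98 CPM, so that the high sums were those of controls 1, 2 and 5. No gene passed in the other 11 marker lists (apical ridge, surface ectoderm, limb mesenchyme, muscle precursor, somite, neural tube, neural crest, endothelium, macrophage, red blood cell and hindlimb). Even so, 5 of the 7 limb mesenchyme genes had an unadjusted p under 0.05 by edgeR, against 21.4% of all genes.

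All 9 members had enough reads to be tested, and their reads over the 11 libraries summed from 129 for Fgfr4 to 16820 for Fgfr1. The 250 bases before the transcription start are shown for the ligand whose level differed most between libraries, Fgf4, and the ligand whose level differed least, Fgf10. Both are from RefSeq on GRCm38.p6, the same assembly as mm10, on the plus strand, in lower case with matches to GGGCGG on either strand in capitals. RefSeq starts were given for 6 of the 9 members. Fgf4 lies at chr7:144847367-144865243 and Fgf10 at chr13:118669791-118792115 in the annotation of the counts (mm10, as for all gene positions given here), and the windows are chr7:144861136-144861385 and chr13:118714449-118714698, so that both annotated genes begin upstream of the RefSeq start.
Fgf4: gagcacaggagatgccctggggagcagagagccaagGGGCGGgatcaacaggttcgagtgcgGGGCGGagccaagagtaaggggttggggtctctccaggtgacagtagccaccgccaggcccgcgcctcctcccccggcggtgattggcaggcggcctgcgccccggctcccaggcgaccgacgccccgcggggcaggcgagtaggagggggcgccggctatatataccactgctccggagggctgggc
Fgf10: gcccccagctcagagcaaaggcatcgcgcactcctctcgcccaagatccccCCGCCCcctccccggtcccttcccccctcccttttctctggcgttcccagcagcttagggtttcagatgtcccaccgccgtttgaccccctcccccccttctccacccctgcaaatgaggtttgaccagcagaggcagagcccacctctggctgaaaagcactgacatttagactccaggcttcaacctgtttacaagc
The Fgf4 window held 2 GGGCGG matches and 21 CpG dinucleotides, more than 83.7% of all 32851 windows of that length, and the Fgf10 window held 1 match and 8 CpG. GGGCGG occurred in 32.7% of all windows and TATAAA, searched in the same way, in 12.4%, and neither of the windows shown held TATAAA. These matches describe the letters only.

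Per length, Fgfr1 and Fgf8 were the most abundant of the 9 genes and Fgfr4 and Fgf4 the least. Levels per length, as CPM per kilobase of annotated exon (RPKM), averaged 11.3 ± 1.47 for Fgfr1, 8.20 ± 2.73 for Fgf8, 5.05 ± 1.03 for Fgf10 and 2.997 ± 0.300 for Fgfr2 (SD, n = 11 libraries of both groups). The other 5 genes were lower, with RPKM of 1.14 ± 0.588 for Fgf17, 0.955 ± 0.589 for Fgf9, 0.540 ± 0.240 for Fgfr3, 0.351 ± 0.332 for Fgf4 and 0.196 ± 0.107 for Fgfr4. Within libraries, Fgfr1 was above Fgf8 in 9 of 11, the exceptions being control 4 and mutant 1, and Fgf8 was above Fgf10 in 10 of 11, the exception being mutant 6. Fgf10 was above Fgfr2, and Fgfr2 above Fgf17, in 11 of 11. The lower neighbours were not ordered alike in all libraries: Fgf17 was above Fgf9 in 8, Fgf9 above Fgfr3 in 9, Fgfr3 above Fgf4 in 7 and Fgf4 above Fgfr4 in 6 of 11, and each of these neighbouring means lay within the SD of the higher gene. The order of Fgf10 and Fgfr2 rested on the length used. With the longest coding transcript in place of all annotated exons, a choice made after seeing the data, Fgfr2 averaged 7.18 and Fgf10 5.65, and Fgf10 was above Fgfr2 in 1 of 11 libraries.

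**Figure D1:**
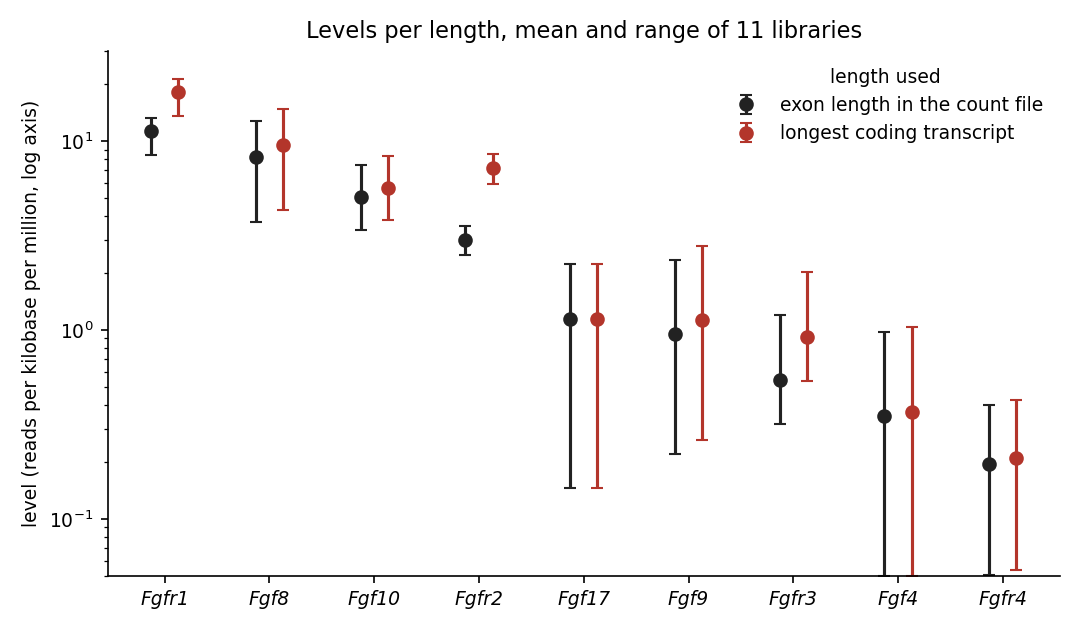
Level of each gene per length in RPKM (log axis), as the mean of 11 libraries with bars from the lowest to the highest library, using the exon length in the count file (black) or the longest coding transcript (red). Fgfr1 and Fgf8 lead under both lengths, Fgfr2 and Fgf10 change places, and the bar of Fgf4 runs off the axis because mutant 4 had 0 reads.

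Among the 4 ridge ligands, Fgf8 made up 77.1 ± 6.98% of the summed RPKM (SD, n = 11), with a range of 67.9 to 82.7% in controls and 65.4 to 86.0% in mutants. Fgfr1 and Fgfr2 together made up 95.1 ± 1.96% of the summed RPKM of the 4 receptors, and the order Fgfr1, Fgfr2, Fgfr3, Fgfr4 held in each of the 11 libraries. The ranges of the receptor share overlapped, at 90.1 to 95.9% in controls and 95.2 to 97.1% in mutants. The ratio of Fgfr1 to Fgfr2 averaged 3.82 by exon length and 2.57 by transcript length.

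None of the 9 genes passed edgeR's quasi-likelihood test between mutants and controls. The count was 0 of 9 at an adjusted p under 0.05, against 2.18% of all 15821 genes tested (0.702% higher and 1.48% lower in mutants), and limma-voom on the same design also gave 0 of 9. DESeq2 gave 0 of the 6 members for which it returned an adjusted p, and none was returned for Fgf4, Fgf17 and Fgfr4. At an unadjusted p under 0.05 the count was 0 of 9, against 21.4% of all genes. The values of mutants and controls overlapped for each of the 9, and the share of all genes with such overlap was not counted. The limits that follow from the replicate spread differed widely, from an interval of -0.27 to 0.12 in log2 fold change for Fgfr2 to one of -1.28 to 2.61 for Fgf4. A log2 fold change equal to that of Gmnn lay outside the intervals of Fgf8, Fgf10, Fgfr1 and Fgfr2 and inside the intervals of Fgf4, Fgf9, Fgf17, Fgfr3 and Fgfr4.

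**Figure D2:**
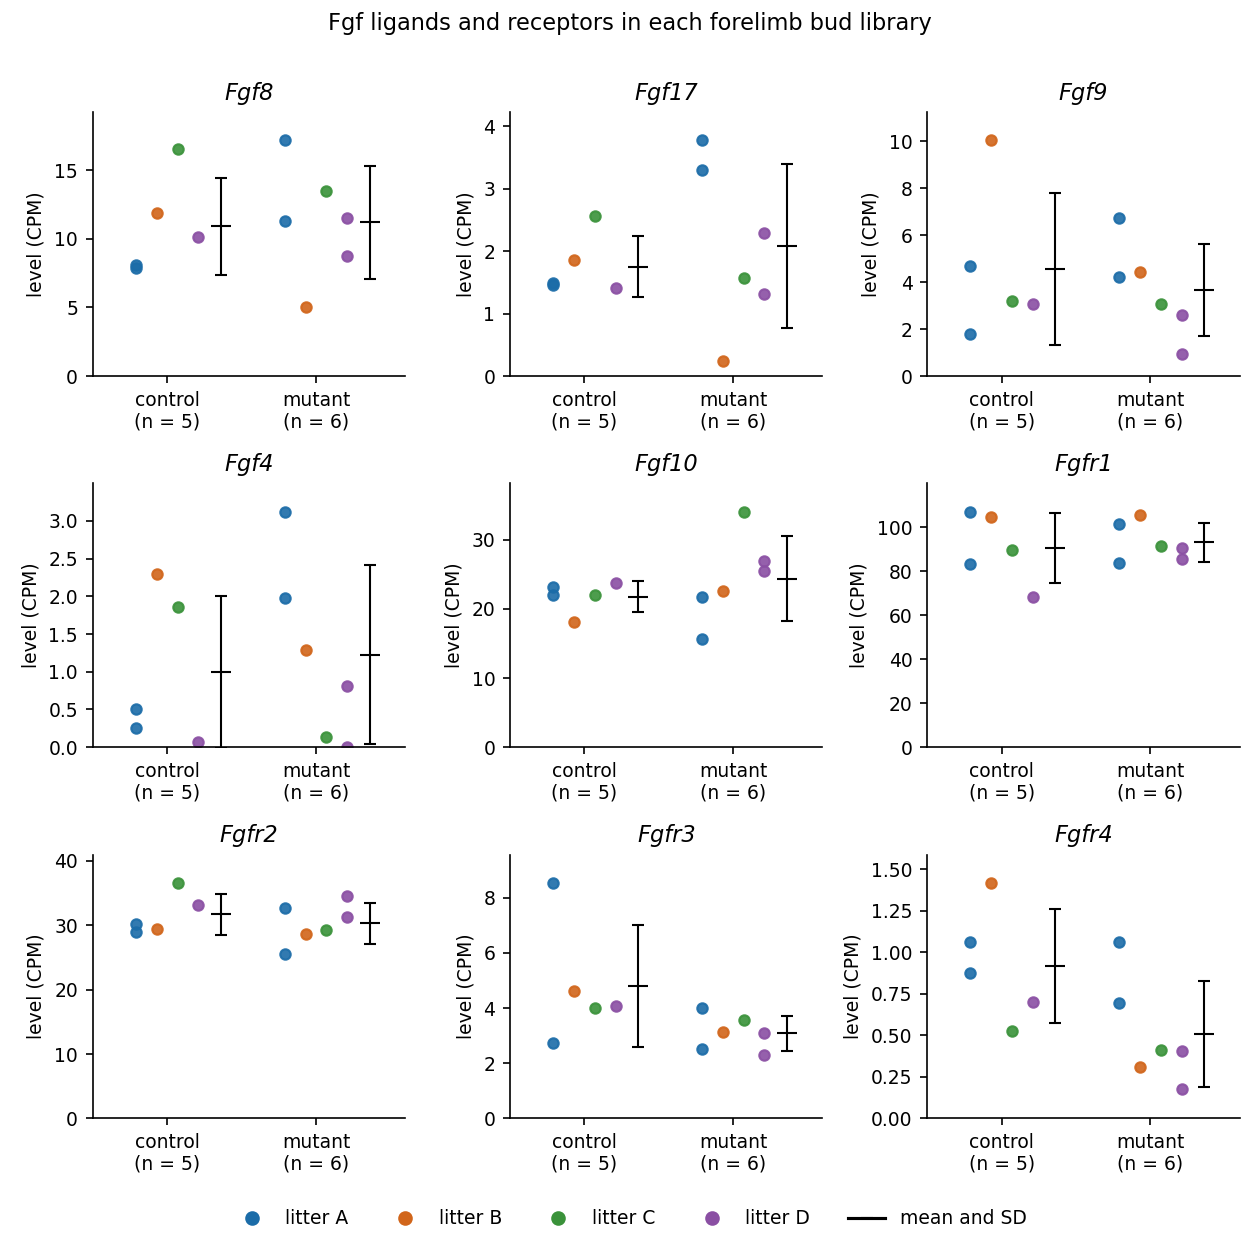
Level of each of the 9 genes in CPM on an axis from 0, with 1 point per library coloured by litter, controls (n = 5) on the left and mutants (n = 6) on the right of each panel, and the mean and SD beside the points. The groups overlap in each panel, and Fgf8, Fgf17 and Fgf4 show litter A mutants above litter A controls and the litter B mutant below its control.

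Fgf8, the principal ridge ligand, which by itself sustains much of limb outgrowth, lies at chr19:45736798-45742915 on the minus strand. It was at 7.89, 8.08, 11.9, 16.6 and 10.2 CPM in controls 1 to 5, and in mutants the lowest, median and highest values were 5.03, 11.4 and 17.2 CPM. The mutants spanned the whole range of the controls, with mutant 1 the highest and mutant 6 the lowest of the 11 libraries. The log2 fold change was 0.04 (95% interval from the fit -0.51 to 0.59, adjusted p = 0.947 by edgeR). Mutant 6 rested on 82 reads, for which counting error alone allows 4.001 to 6.24 CPM (exact Poisson 95% interval), below the lowest control.

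Fgf17, a ligand of the posterior and distal ridge, lies at chr14:70636205-70642268 on the minus strand. Its levels were 1.45, 1.49, 1.85, 2.56 and 1.401 CPM in controls 1 to 5, and the lowest, median and highest mutant values were 0.245, 1.93 and 3.77 CPM. Mutants 1 and 2 were above the 5 controls and mutant 6, with 4 reads and a Poisson interval of 0.0669 to 0.628 CPM, was below them. The log2 fold change was 0.09 (95% interval -0.91 to 1.10, adjusted p = 0.935 by edgeR), so that a difference of 1 log2 unit in the direction of higher mutant levels lay inside the interval.

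Fgf9, a ligand of the ridge and of other embryonic epithelia, lies at chr14:58070547-58112337. It was at 1.79, 4.68, 10.03, 3.20 and 3.08 CPM in controls 1 to 5, and at a lowest of 0.940, a median of 3.65 and a highest of 6.75 CPM in mutants. Control 3 was the highest and mutant 3 the lowest library, 10.7 times apart, and the other libraries of the groups were interleaved. Its log2 fold change was -0.14 (95% interval -0.93 to 0.66, adjusted p = 0.871 by edgeR), and -0.71 without litter A (adjusted p = 0.359).

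Fgf4, a ligand of the posterior ridge whose expression depends on Shh signalling and the Bmp inhibitor Grem1, varied most between libraries, with a coefficient of variation of 94.7% over the 11. Controls 1 to 5 were at 0.503, 0.257, 2.29, 1.86 and 0.0701 CPM, from 9, 5, 42, 32 and 1 reads. In mutants the lowest, median and highest values were 0, 1.05 and 3.12 CPM, the last from 54 reads. Mutant 4 had 0 reads, which allows a level of up to 0.178 CPM (3 counts of its scaled total, counting error only), and mutant 5 had 2. Each group thus held libraries with 30 or more reads and libraries with 2 or fewer. For control 3 and control 5 the exact Poisson intervals were 1.65 to 3.10 CPM and 0.00177 to 0.390 CPM, so that counting error alone did not bridge them. For the groups as a whole the log2 fold change was 0.66 (SE 0.89, adjusted p = 0.723 by edgeR), and it was 0.07 without control 2 and 1.56 without control 4.

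Fgf10, the mesenchymal ligand, was the most even of the ligands, with a coefficient of variation of 20.5%. It was at 22.1, 23.1, 18.1, 22.0 and 23.8 CPM in controls 1 to 5, and in mutants the lowest, median and highest values were 15.6, 24.0 and 34.1 CPM. Mutant 5 was the highest and mutant 2 the lowest library, so that the controls lay inside the range of the mutants. Its log2 fold change was 0.11 (95% interval -0.18 to 0.41, adjusted p = 0.686 by edgeR). In GENCODE M21 the transcript Gm16263 overlaps 2.67% of the exon length of Fgf10, and the counting used no strand. Without litter A the log2 fold change of Fgf10 was 0.34 (adjusted p = 0.230 by edgeR).

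The 2 abundant receptors were the most even members. Fgfr1, the main receptor of the limb mesenchyme, lies at chr8:25513654-25575714 and was at 107, 83.1, 105, 89.5 and 68.0 CPM in controls 1 to 5 and at 83.5 (lowest), 91.0 (median) and 106 CPM (highest) in mutants. Control 5 was the lowest library and the mutants lay inside the range of the controls, with a log2 fold change of 0.08 (95% interval -0.12 to 0.29, adjusted p = 0.662 by edgeR). Gm16159 overlaps 1.66% of its exon length. Fgfr2, whose splice forms serve the ectoderm and the mesenchyme and are summed in the gene count, lies at chr7:130162451-133123350 and was at 29.0, 30.2, 29.4, 36.6 and 33.2 CPM in controls 1 to 5. In mutants Fgfr2 was at 25.6 (lowest), 30.2 (median) and 34.5 CPM (highest), its log2 fold change was -0.08 (95% interval -0.27 to 0.12, adjusted p = 0.664 by edgeR), and its coefficient of variation over the 11 libraries, 10.02%, was the smallest of the 9. The mutant mean of Fgfr2 in log2 CPM was below the control mean in each litter, by -0.03, -0.04, -0.32 and -0.02 in litters A to D. Ctbp2 overlaps 3.04% of the Fgfr2 exon length.

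Fgfr3, a receptor best known for restraining the growth of cartilage, lies at chr5:33721674-33737068. It was at 2.74, 8.55, 4.63, 4.01 and 4.06 CPM in controls 1 to 5, and in mutants the lowest, median and highest values were 2.28, 3.11 and 3.99 CPM. Of the controls, 4 lay above the highest mutant and control 1 lay among the mutants. The log2 fold change was -0.59 (SE 0.27, 95% interval -1.18 to 0.01), with the mutant mean below the control mean in 4 of 4 litters, and it did not pass the test (adjusted p = 0.242 by edgeR). The share of all genes with the same sign in each litter was not counted, here or for Fgfr2. Control 2, the library with high levels of Pitx1 and Isl1 but not of Tbx4, held the highest Fgfr3 value. Without it the log2 fold change was -0.27 (adjusted p = 0.561 by edgeR). The part of other tissue in that library was not tested. A neighbouring transcript, G630022F23Rik, overlaps 13.9% of the exon length of Fgfr3 in GENCODE M21, and how many reads lie in the overlap was not measured.

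Fgfr4, known in the limb for its expression in muscle precursors, lies at chr13:55152640-55168759 and was the scarcest member, with 3 to 26 reads per library. It was at 1.06, 0.875, 1.42, 0.523 and 0.701 CPM in controls 1 to 5, and the lowest, median and highest mutant values were 0.178, 0.407 and 1.06 CPM. Of the mutants, 4 lay below the lowest control and mutants 1 and 2 lay among the controls. The log2 fold change was -0.80 (SE 0.41, 95% interval -1.69 to 0.09), with the mutant mean below the control mean in 4 of 4 litters, and it did not pass the test (adjusted p = 0.287 by edgeR). Here too, the share of all genes with the same sign in each litter was not counted. Without control 3 or without mutant 6, which are the litter B pair, the log2 fold change was -0.49 (adjusted p = 0.640 and 0.629). Muscle precursor genes (Pax3, Lbx1, Met, Myf5 and Pax7) summed to 50.2 to 80.0 CPM in controls and 48.9 to 88.2 CPM in mutants, with 0 of 5 called and Pax7 at 0 in some libraries. The differentiating muscle list held 3 genes called lower in mutants, as given above, and its highest libraries were controls 5, 2 and 1, whereas Fgfr4 was highest in control 3. The part of either in the Fgfr4 values was not tested.

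**Figure D3:**
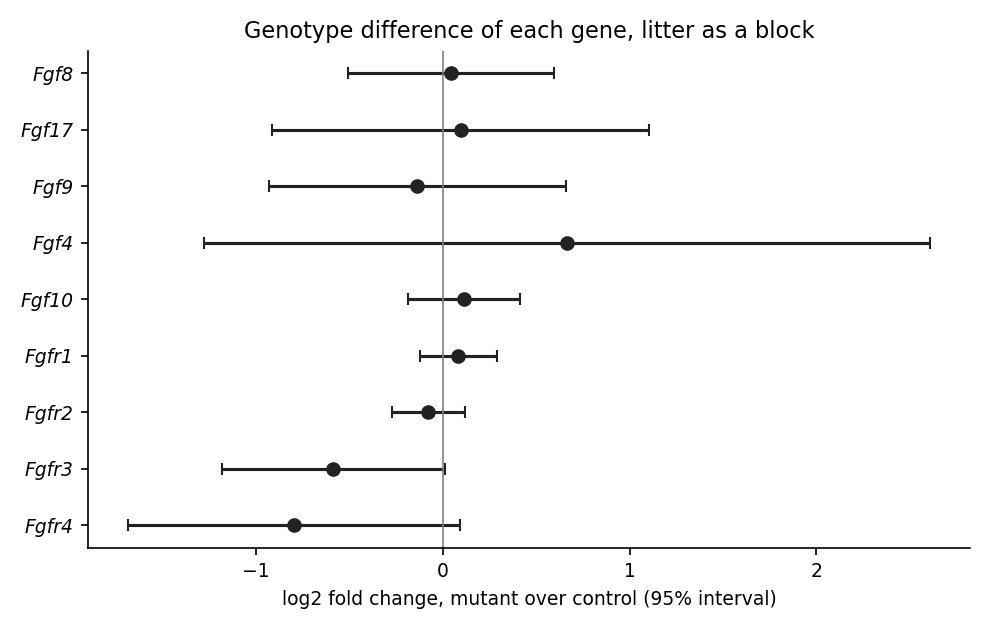
Log2 fold change of mutant over control for each of the 9 genes (points), with 95% intervals from the fit with litter as a block (bars), and a line at 0. Each interval includes 0, from the narrow ones of Fgfr1 and Fgfr2 to the wide one of Fgf4.

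The direction of the genotype difference of the ridge ligands was not the same in each litter. For Fgf8, the mutant minus control difference in log2 CPM was 0.80 in litter A, -1.22 in litter B, -0.30 in litter C and -0.02 in litter D. Fgf17 gave 1.19, -2.43, -0.66 and 0.28 in the same order. Fgf4 gave 2.43, -0.77, -2.94 and 0.81. For these 3 ligands, both mutants of litter A lay above both of its controls, and the mutant of litter B lay below its control. Fgf9 differed by 0.85 in litter A, -1.16 in litter B, -0.05 in litter C and -0.91 in litter D, and all 4 of these ligands were thus above 0 in litter A and below 0 in litters B and C. Fgf10, from the mesenchyme, gave -0.29 in litter A, 0.32 in litter B, 0.63 in litter C and 0.14 in litter D, below 0 in litter A and above 0 in the others.

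In the test of the genotype by litter interaction, which leaves 3 residual degrees of freedom, 0 of 9 members passed (adjusted p = 0.950 for Fgf8, Fgf17 and Fgf4 by edgeR), and 0% of all genes did. The unadjusted p was under 0.05 for 3 of 9 (0.00472 for Fgf17, 0.00645 for Fgf8 and 0.0264 for Fgf4), against 3.82% of all genes. Those 3 passed at the adjusted threshold in the fit with no filter on low counts, in which 438 of 29256 genes did. Differences between litters with genotype in the model passed for 0 of 9 members, against 0.0885% of all genes, and 1 of 9 had an unadjusted p under 0.05 (Fgf9, 0.0480), against 13.5% of all genes. By limma-voom 0 of 9 passed both tests. By DESeq2 0 of 9 passed for litter and 0 of 6 for the interaction, where Fgf4, Fgf17 and Fgfr4 again had no adjusted p.

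**Figure D4:**
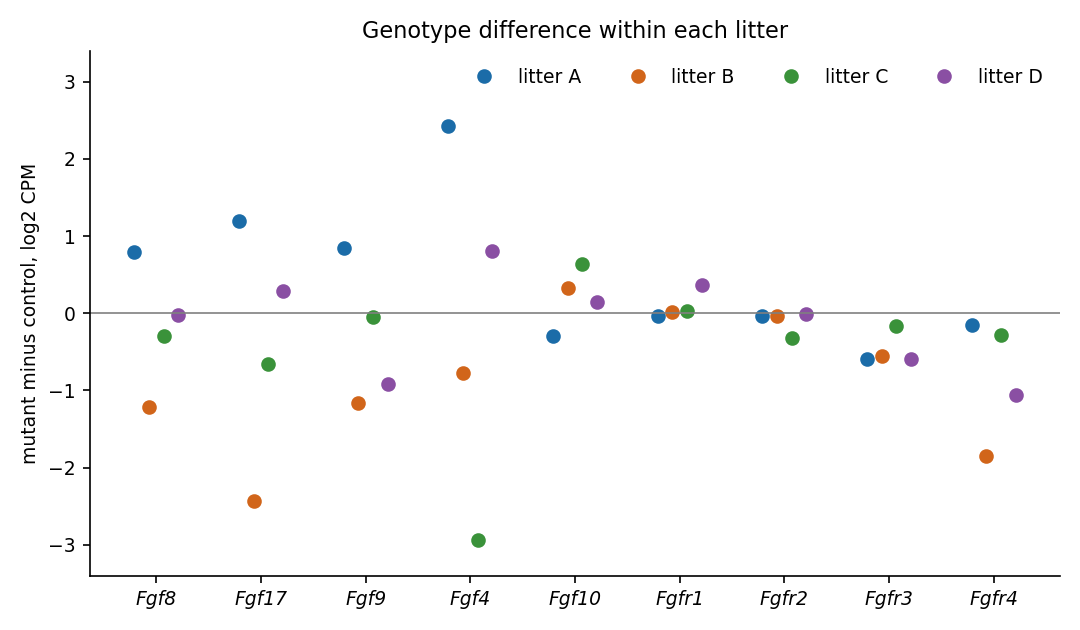
Mutant minus control difference in mean log2 CPM within each of the 4 litters (coloured points) for the 9 genes, with a line at 0. The points of the ridge ligands Fgf8, Fgf17, Fgf9 and Fgf4 lie on both sides of 0, with litter A above it, while those of Fgfr2, Fgfr3 and Fgfr4 lie below it.

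The ligands were also set against marker genes listed for the tissue that makes them, as a ratio to the summed marker level. The summed ridge genes averaged 162 CPM over the 11 libraries, of which Sp8 was 106 CPM and Trp63 29.8 CPM, so that the sum was mostly Sp8. Sp8 averaged 120 CPM in controls and 93.9 CPM in mutants, and the ratios carry that difference. Its transcripts hold a run of T of 22 bases, a property taken up below. The sum is therefore not a measure of the amount of ridge tissue alone. The limb mesenchyme sum averaged 586 CPM, of which Prrx1 was 251 CPM, and its genes moved in both directions. Pdgfra averaged 103 CPM in controls and 73.2 CPM in mutants, and Twist1 54.2 and 65.7 CPM. That sum is likewise not a measure of the amount of mesenchyme alone. Fgf8 amounted to 5.24 to 7.41% of the summed CPM of the ridge genes in controls and to 3.57 to 12.0% in mutants, and Fgf17 to 0.723 to 1.37% and 0.174 to 2.69%. The mutants covered a wider range than the controls on either side for both. Over litters, the mutant minus control difference of log2(ligand over summed markers) was 0.11 for Fgf8 (exact two-sided permutation within litters, p = 0.708, 72 arrangements). It was -0.04 for Fgf9, -0.22 for Fgf17 and, against limb mesenchyme genes, 0.21 for Fgf10 (p = 0.389 by the same exact permutation). The adjusted p was 0.931 for each of these 4. Fgf4, with a library at 0, had no such value. With the ridge genes weighted equally, as their mean log2 CPM, the Fgf8 difference was -0.16 (exact permutation, adjusted p = 0.986). Without control 3 or without mutant 6, either of which takes litter B out of the comparison, the Fgf8 difference was 0.41 (exact permutation p = 0.0278, adjusted p = 0.111) and that of Fgf17 0.54 (adjusted p = 0.333). Both settings have 36 arrangements, and 0.0278 is the smallest p that this number allows. They are among 11 settings with a single library left out, and the adjustment was over the ligands within a setting, not over settings.

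**Figure D5:**
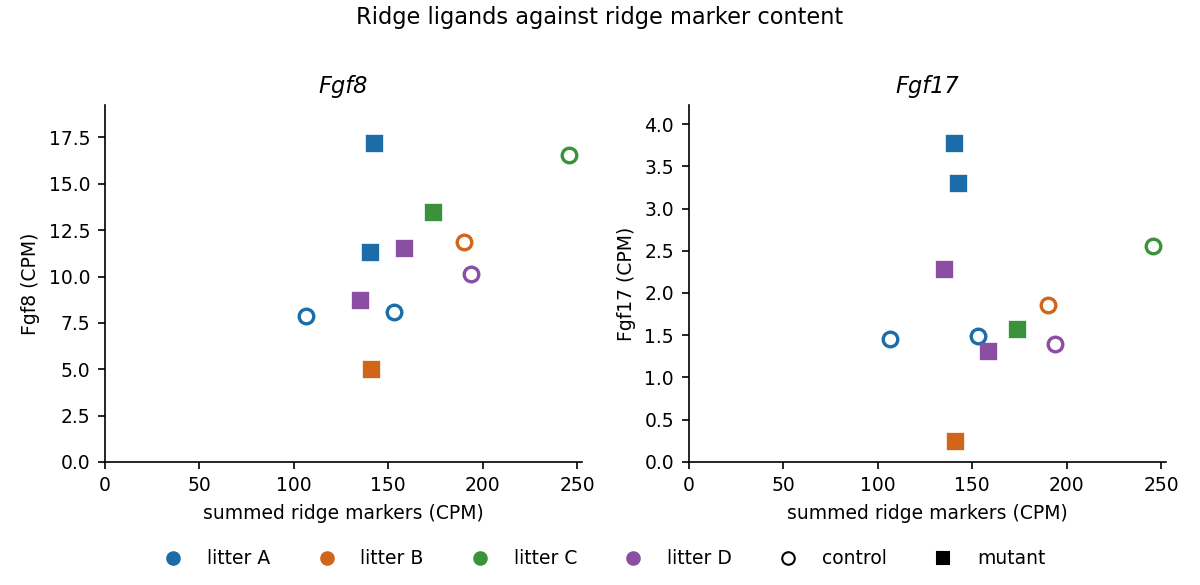
Level of Fgf8 (left) and Fgf17 (right) in CPM against the summed CPM of 7 ridge marker genes, 1 point per library, open circles for controls and filled squares for mutants, coloured by litter. Mutants 1 and 6 hold the highest and lowest Fgf8 at nearly the same marker level of 143 and 141 CPM.

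Of the 36 pairs among the 9 genes, Fgf8 and Fgf17 had the largest Pearson correlation across libraries. Over the 11 libraries Pearson's r of log2 CPM was 0.77 (permutation p = 0.00629, adjusted p = 0.226) and Spearman's rho 0.59 (permutation p = 0.0603, adjusted p = 0.434). Without mutants 6 and 1, the libraries farthest from the Fgf8 median, r was 0.32, so that the relation rested on those libraries. With litter means removed r was 0.81. Fgf4 and Fgf10 had the largest rank correlation in size, with rho -0.81 (permutation p = 0.00365, adjusted p = 0.131) and r -0.63 (permutation p = 0.0341, adjusted p = 0.397), and r was -0.71 without mutant 4 and control 5. With litter means removed their r was -0.53. Fgf4 and Fgf17 had a rho of 0.69 (permutation p = 0.0230, adjusted p = 0.276) and an r of 0.30 (permutation p = 0.405, adjusted p = 0.857), which was 0.27 without mutant 4 and control 5. For Fgf9 and Fgf10, rho was -0.70 (permutation p = 0.0203, adjusted p = 0.276) and r -0.62 (permutation p = 0.0442, adjusted p = 0.397). For Fgf10 and Fgfr4, rho was -0.64 (permutation p = 0.0403, adjusted p = 0.363) and r -0.64 (permutation p = 0.0325, adjusted p = 0.397). No pair passed the adjustment over the 36.

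The genes whose deviations from the genotype means followed each member most closely over the 11 libraries are given as a description, from 13255 genes with a mean of at least 1 CPM. Fgf17 was followed by Chkb (r = 0.92), Etv4 (0.91) and Cog7 (0.91), of which Etv4 is a transcription factor gene of the Fgf response list below. Fgf8 was followed by Zfp335 (0.89), Bcl7b (0.88) and Ccdc71 (0.87), Fgf4 by Kcne1l (0.97), Ly6g6e (0.95) and Gprin1 (0.93), and Fgf9 by Nmrk1 (0.92), D330023K18Rik (0.92) and Tpd52 (0.90). For Fgf10 the genes were Chst2 (0.98), RP23-292C5.8 (0.98) and Ipo5 (0.96). Among receptors, Fgfr1 was followed by Ldb2 (0.97), Tanc1 (0.97) and Adam11 (0.96), Fgfr2 by Slc26a10 (0.90), Dcaf17 (0.90) and Slc22a21 (0.88), and Fgfr3 by Dclk2 (0.88), Arhgap31 (0.88) and Fam184a (0.88). No member was among the 3 genes nearest to another, and none of these genes differed between genotypes at an adjusted p under 0.05 by edgeR.

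Around the 9 genes, 7 lists of the Fgf pathway held 98 genes, of which 85 were tested and 4 passed, all lower in mutants. That is 4.71% of those tested, against 2.18% of all genes, and the median log2 fold change was 0.0262, against 0.00382 over all genes. No gene passed among 8 tested of the other 17 Fgf ligands, where Fgf13 and Fgf5 were the most abundant per length (0.802 and 0.792 RPKM), nor among 16 tested receptor partners and adaptors, with Flrt3 at a log2 fold change of -0.31 (adjusted p = 0.0915 by edgeR) and the adaptor Crk at 0.13. Nor did any among 9 regulators of Fgf10 and Fgf8, with Sall4 at -0.22 and Ctnnb1 at 0.15. None passed among 11 genes of the Shh and Grem1 loop, which feeds back on ridge Fgf4, and 8 of the 11 fold changes were positive, with a median of 0.21. In that list 5 of 11 had an unadjusted p under 0.05, against 21.4% of all genes: Grem1 at 0.47 (adjusted p = 0.112), Ptch1 at 0.37 (0.128), Hand2 at 0.37 (0.161), Gli1 at 0.70 (0.170) and Bmp4 at 0.21 (0.223), all by edgeR. Of these, Bmp4 was the most abundant per length with Msx1 (-0.09), and the other 4, chosen after their values were seen, had a mutant mean above the control mean in 4 of 4 litters. The share of all genes with the same sign in each litter was not counted. A count such as 5 of 11 at an unadjusted p under 0.05 was not particular to the loop. At an unadjusted p under 0.05 by edgeR stood 5 of 10 Ras and MAP kinase genes and 5 of 16 receptor partners. The same held for 4 of 11 response genes, 5 of 20 heparan sulfate genes, 1 of 9 regulators and 0 of 8 other ligands. Among limb mesenchyme markers it was 5 of 7, with a median log2 fold change of 0.20.

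The 4 genes that passed came from 3 of the lists. In the Ras and MAP kinase core, 2 of 10 passed: Nras, a small GTPase, with a log2 fold change of -0.48 (SE 0.10, adjusted p = 0.0406 by edgeR) and levels of 784 to 998 CPM in controls and 506 to 806 CPM in mutants, and the kinase Braf with -0.60 (SE 0.14, adjusted p = 0.0495). Mapk3, the kinase at the end of the cascade, was at -0.02. In the Fgf response and feedback list, 1 of 11 passed: Spry2, an inhibitor induced by Fgf signalling, with -1.39 (SE 0.26, adjusted p = 0.0390) and levels of 64.5 to 277 CPM in controls and 35.3 to 127 CPM in mutants. Dusp6, the phosphatase induced in mesenchyme by ridge Fgf, did not pass at -0.31 (adjusted p = 0.0916). Of 20 tested genes of heparan sulfate, the co-receptor of Fgf, 1 passed, the core protein gene Sdc4 with -0.72 (SE 0.11, adjusted p = 0.0291), and Gpc3 was at -0.11.

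A property of the libraries that moved with genotype is given beside these 4 genes. Their transcripts hold runs of T of 24 bases (Nras), 22 (Braf), 38 (Spry2) and 22 (Sdc4), whereas the longest run in the 9 members was 17 bases in Fgf9, then 16 in Fgfr1. The marker genes Grhl2 (24), Sp8 (22) and Myf5 (22) have runs of such length too and did not pass. The share of all genes, or of all genes called, with such runs was not counted. The mean of the longest T run over transcripts, weighted by level, was 9.75 to 10.8 bases in control libraries and 9.21 to 10.2 bases in mutant libraries. With that index as a covariate the log2 fold changes were -0.22 for Nras, -0.10 for Braf, -0.30 for Spry2 and -0.36 for Sdc4. None of the 4 passed (adjusted p of 0.361 to 0.820 by edgeR). Of all 15821 genes 3 passed in that fit, against 345 without the covariate, so that losing a call was not particular to these 4. The index was computed from the levels in the same libraries and differed with genotype. The part of T runs in these fold changes was not tested. Members moved in the same fit as well: Fgf9 was at -0.99 (adjusted p = 0.540), Fgf10 at 0.40 (adjusted p = 0.499) and Fgfr1 at 0.39 (unadjusted p = 0.000931, adjusted p = 0.282 by edgeR), and none of the 9 passed. Each of the 4 pathway genes kept a negative sign in the 24 alternatives run, and passed in 9 (Nras), 9 (Braf), 10 (Spry2) and 12 (Sdc4) of them. The 24 are not all separate checks, because a litter left with 1 genotype adds nothing to the blocked comparison. Nras was at -0.48 without control 3, mutant 6 or litter B, and at -0.53 without control 4, mutant 5 or litter C. Without control 5 or litter D it was at -0.55.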

How the data were processed

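The deposited values are raw counts of reads per gene name. The authors counted reads with featureCounts v1.4.6-p4 on GENCODE M9, with a mapping quality of at least 10 and no strand option, per the file headers. STAR 2.5.4b and mm10 are named in the submitters' processing notes. The deposited table also gives each gene's exon length in bases (another unit, neither a count nor a level). The header command lists 12 alignment files, and the table used here has 11 library columns.

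Counts were analysed with edgeR 4.0.16 in R 4.3.3: filterByExpr kept 15821 genes holding 99.9% of counts, TMM factors scaled the libraries, and the quasi-likelihood F test (two-sided, Benjamini-Hochberg over all genes tested, threshold 0.05) had litter as a block and genotype. CPM were taken from TMM-scaled totals, with a prior count of 2 on the log2 scale, and RPKM divide CPM by the deposited exon length. Litter and interaction terms were tested on their 3 coefficients together. Ligand to marker ratios were tested by exact permutation of genotype within litters. Alternatives were RLE and upper-quartile scaling, other filters, DESeq2 1.42.0, limma-voom (limma 3.58.1), no block, removal of abundant RNAs, a T-run covariate (transcripts of GENCODE M21) and each library or litter left out.

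Pairing is by the litter in the titles. Across genes, deviations from group means correlated at -0.16 to 0.37 (median 0.13) in 8 pairs of the same litter and at a median of -0.02 in 22 pairs of different litters. No libraries of a group were alike within sampling noise (chi-square per degree of freedom at least 7.39 in 25 pairs). The labels state separate embryos, not separate dissections, and p-values measure the spread between these embryos.

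All 9 members are named, with the pathway genes that passed or were the most abundant per length in their list, and the 3 genes nearest to each member with a mean of at least 1 CPM. The members and lists were chosen with earlier results of these data known.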

Additional observations from a re-analysis of the deposited data

Results flagged for a closer look

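Fgf10 in control 3 was at 4.19 log2 CPM (332 reads), away from the other controls at 4.46 to 4.58. The gap to the nearest of them was 0.711 of the range of the group. It was the only such value among the 18 groups of member levels examined (9 genes in controls and in mutants), a rule by which chance picks out about 1 group in 20.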

How the results depend on the processing

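The count of members called between genotypes was 0 under each of 24 alternatives (9 other settings, 11 libraries and 4 litters left out), though DESeq2 gave no adjusted p for 3 members and the filter of 1 CPM in 5 libraries left 8 to test, while all genes called went from 345 to between 1 and 1566. Several of the 24 repeat nearly the same comparison, as given above. The fit with no replicate block, with genotype alone, also called 0 members (13 of all genes). With no filter on low counts, the litter test called 2 members (Fgf4 and Fgf9) and 1583 of all 29256 genes, against 14 of 15821 in the main fit. The interaction test without the filter called 3 members and 438 of all genes, against 0 of all genes in the main fit. Calls thus rose over all genes in that fit. Fgfr2, Fgfr3 and Fgfr4 kept a negative fold change under all alternatives that tested them, with an adjusted p for Fgfr3 of 0.0726 to 0.629 by edgeR, DESeq2 or limma. Directions of the small fold changes were not stable. With libraries left out one at a time, log2 fold changes ran from 0.07 to 1.56 for Fgf4, -0.16 to 0.32 for Fgf8, -0.43 to 0.13 for Fgf9, -0.00831 to 0.23 for Fgf10, -0.14 to 0.55 for Fgf17 and -0.00728 to 0.16 for Fgfr1. Without litter A, Fgf4 was at -0.94, Fgf8 at -0.45, Fgf9 at -0.71, Fgf10 at 0.34 and Fgf17 at -0.75. Fgf9 was at 0.13 without litter B and 0.0566 without litter D, Fgf10 at -0.00646 without litter C, Fgfr1 at -0.00695 without litter D, and, with the T-run covariate, Fgf17 at -0.13, Fgf9 at -0.99, Fgf10 at 0.40 and Fgfr1 at 0.39. Relative to markers, Fgf8 was at -0.16 against the mean log2 CPM of the ridge genes, and with a library left out Fgf9 ran from -0.19 to 0.20 and Fgf17 from -0.53 to 0.54. The cause was not tested. Depth limits Fgf4, Fgf17 and Fgfr4 most, with as few as 0, 4 and 3 reads in a library.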
